A study of Mus musculus with 22 samples.

Results

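Foxc1, Foxc2 and Twist1 are 3 of the 998 genes counted in single cells of mid-gestation mouse embryo sections, and they were chosen by name as transcription factors of embryonic mesenchyme. The counts came from the CosMx spatial molecular imager, which reads fluorescent probes on RNA in place and assigns each transcript to a segmented cell. The series holds 22 sections of 2 embryos at E10, cut at 10 µm, with 13 sections labelled Nr4a1-/-Nr4a2-/- from 1 embryo and 9 sections labelled Nr4a1+/+Nr4a2+/+ from the other. The study selected the region around the dorsal aorta in each section, to follow how blood stem cells arise there, and the imaged fields also hold the surrounding mesenchyme.

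The labels name no transgene or Cre, and the loss of Nr4a1 and Nr4a2 is the labelled difference between the embryos. With 1 embryo per genotype, a comparison of sections compares 2 embryos, and p-values measure only the spread between sections. No slide held both genotypes, so embryo, genotype and slide cannot be told apart. Of 37575 segmented cells, 37570 had at least 10 transcripts from at least 10 genes and were kept, 21191 of the first embryo, labelled Nr4a1-/-Nr4a2-/-, and 16379 of the second. Section totals ran from 169027 to 887896 transcripts in the first embryo and from 211614 to 820265 in the second. With TMM scaling between sections, the targeted genes did not separate the labels. In sums over all cells Nr4a1 differed by -0.05 and Nr4a2 by 0.03 on the log2 scale (edgeR quasi-likelihood test, Benjamini-Hochberg adjusted p = 0.716 and 0.860). As unscaled section rates both were lower in the first embryo. Nr4a1 averaged 2.24 ± 0.250 (SD, n = 13) and 2.77 ± 0.274 (SD, n = 9) per 10000, and Nr4a2 4.17 ± 0.620 and 4.89 ± 0.830. The panel median was also lower there, at 5.26 and 6.62. Whether the probes lie in the deleted part is not given in the sources used here. Nr4a1, at 2.24 and 2.77 per 10000, lay below the 5th percentile of the panel in both embryos (2.86 and 3.51). The study's own section counts per genotype differ from those of the labels, which were used here, and exchanged labels would turn the sign of every embryo difference below. In 6 pairs of sections 391 to 908 cell names recurred, with 0 identical profiles among them.

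Foxc1 and Foxc2 encode closely related forkhead DNA-binding proteins that act in overlapping ways in paraxial mesoderm, somites, cardiovascular mesenchyme and the endothelium of arteries and lymphatics. Twist1 encodes a basic helix-loop-helix protein that keeps mesenchyme undifferentiated and represses epithelial genes such as Cdh1. In the embryo the sclerotome, the part of the somite that forms vertebrae and ribs, expresses Foxc1, Foxc2 and Twist1 together with Pax1, Pax9 and Sox9. The study placed Foxc1 and Foxc2 in its Notch gene list. It described a cluster as seemingly of sclerotome, with Foxc1 and Twist1 among the genes it rested on.

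In the mouse genome (GRCm38.p6) Foxc1 lies at chr13:31806646-31810635, Foxc2 at chr8:121116171-121118895 and Twist1 at chr12:33957671-33959831. The 150 bases before the annotated start are shown for Foxc1 and Twist1, and for Cxcl12, the gene most correlated with both Foxc1 and Foxc2 over cells. The sequences are RefSeq promoters on the plus strand, at chr13:31806496-31806645, chr12:33957521-33957670 and chr6:117168385-117168534, and capitals mark every match on either strand to CCAAT (the CCAAT box), TATAAA (the TATA box) and GGGCGG (the GC box).
Foxc1: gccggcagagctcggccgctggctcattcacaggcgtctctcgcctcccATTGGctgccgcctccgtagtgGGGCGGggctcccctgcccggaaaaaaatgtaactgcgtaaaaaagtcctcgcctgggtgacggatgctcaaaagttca
Twist1: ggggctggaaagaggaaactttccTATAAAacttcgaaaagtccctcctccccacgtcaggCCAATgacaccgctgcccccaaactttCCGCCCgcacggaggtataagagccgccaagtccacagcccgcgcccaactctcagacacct
Cxcl12: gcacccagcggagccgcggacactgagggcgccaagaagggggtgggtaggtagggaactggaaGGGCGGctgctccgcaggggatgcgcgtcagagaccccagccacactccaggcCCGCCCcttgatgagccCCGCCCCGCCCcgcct
The Foxc1 window held 1 CCAAT box and 1 GC box, the Twist1 window 1 of each with a TATA box, and the Cxcl12 window 4 GC boxes, of which the last 2 overlap. Of 32851 RefSeq windows of this length, 24.5% held CCAAT, 7.57% TATAAA and 28.6% GGGCGG. Neither the E-box letters CANNTG, found in 47.7% of the windows, nor the forkhead core TGTTTAC, found in 1.80%, occurred in the 3 windows shown.

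Foxc1 transcripts numbered 15995 in all kept cells, Foxc2 transcripts 5696 and Twist1 transcripts 48651. A transcript of Foxc1 was counted in 22.8% of cells of the first embryo and 22.01% of those of the second. For Foxc2 these shares were 11.8% and 11.03%, and for Twist1 46.1% and 40.0%. Single cells reached 16 transcripts of Foxc1, 8 of Foxc2 and 47 of Twist1. Transcripts of all 3 genes were bunched in fewer cells than their totals spread at random would give. At least 5 Foxc1 transcripts were found in 304 cells of the first embryo, where a Poisson spread over cell totals gave 48.0, and in 153 cells of the second, where it gave 20.7. At least 3 Foxc2 transcripts were found in 141 and 100 cells, against 44.6 and 28.3, and at least 5 Twist1 transcripts in 2201 and 830, against 1753 and 440. This held for nearly the whole panel: 994 of 998 genes in the first embryo and 996 in the second were found in fewer cells than such a spread gave. The observed share of that number was 0.734 and 0.757 for Foxc1, 0.868 and 0.854 for Foxc2 and 0.774 and 0.793 for Twist1, beside panel medians of 0.838 and 0.828. Levels are given below as transcripts per 10000 counted in the same cells, and since probes differ in efficiency, a level of one gene is not compared with that of another.

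Foxc1 ran from 12.2 through a median of 18.1 to 30.8 per 10000 over 13 sections of the embryo labelled Nr4a1-/-Nr4a2-/- (mean 17.7 ± 5.52, SD), and from 10.9 through 15.5 to 22.9 over 9 of the other (15.5 ± 3.31). The groups overlapped, with 2 sections of the first embryo above the highest of the second. Foxc2 ran from 4.01 through 5.92 to 10.4 per 10000 (6.18 ± 1.65, SD, n = 13) and from 4.48 through 5.38 to 8.94 (5.76 ± 1.29, SD, n = 9). Only 1 section of the first embryo exceeded the second embryo's range. Twist1 ran from 32.6 through 54.3 to 80.0 per 10000 (54.7 ± 14.8, SD, n = 13) and from 16.1 through 37.2 to 51.5 (34.9 ± 10.3, SD, n = 9). Of the 13 sections of the first embryo, 7 lay above the highest of the second, and 3 of the 9 lay below the lowest of the first.

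**Figure D1:**
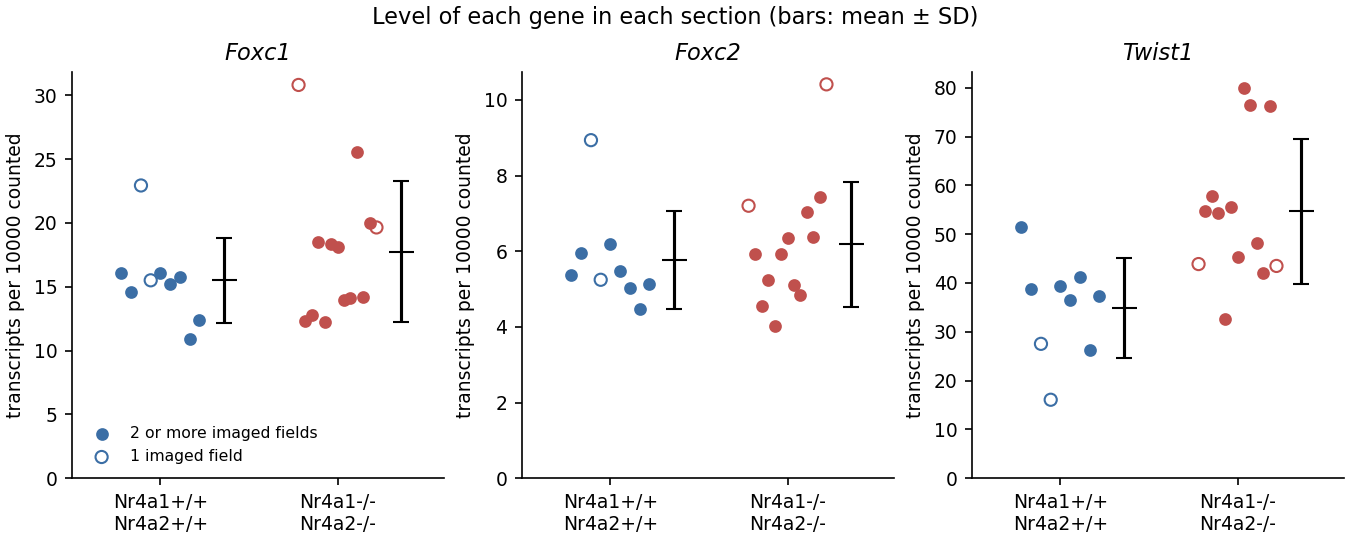
Transcripts of Foxc1, Foxc2 and Twist1 per 10000 counted (vertical axes) in each of 9 sections labelled Nr4a1+/+Nr4a2+/+ (blue) and 13 labelled Nr4a1-/-Nr4a2-/- (red), with mean ± SD in black and open circles for sections of 1 imaged field. Foxc1 and Foxc2 overlap over most of their ranges, while 7 red sections for Twist1 lie above every blue one.

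Over all cells Twist1 rose in the sections labelled Nr4a1-/-Nr4a2-/-, by 0.91 on the log2 scale (SE 0.19, edgeR quasi-likelihood test with Benjamini-Hochberg adjustment over 998 genes, adjusted p = 0.00108). Foxc1 passed the threshold narrowly, at 0.46 (SE 0.15, edgeR adjusted p = 0.0408), and Foxc2 did not pass it, at 0.36 (SE 0.13, edgeR adjusted p = 0.0748). The same test called 98 genes, 9.82% of those tested, higher in this embryo and 27 lower, and Foxc1 and Twist1 stood among the higher genes. This split rests on the scaling: with library size alone edgeR called 58 higher and 719 lower, and an exact permutation test of section rates 54 higher and 719 lower. In sums over all cells, more cells of a type and more RNA per cell cannot be told apart. The Foxc1 call did not survive 13 of the 22 fits that each left out 1 section, in which its adjusted p ran from 0.0139 to 0.0825. The Twist1 call was kept in all 22, with adjusted p between 0.000394 and 0.00314 and a log2 difference between 0.81 and 1.01. Scaling by library size alone, which moved the median over all genes from -0.03 to -0.30, gave 0.19 for Foxc1 (edgeR adjusted p = 0.239), 0.09 for Foxc2 (0.524) and 0.64 for Twist1 (0.00162). Among the sections whose set number is 1, Twist1 differed by 0.78 (edgeR adjusted p = 0.105), and among those numbered 2 by 1.08 (adjusted p = 0.00413). For Foxc1 the differences within the sets were 0.27 (edgeR adjusted p = 0.563) and 0.66 (0.0219), and for Foxc2 0.06 (0.851) and 0.65 (0.0160).

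Relatives of these factors gave smaller differences with TMM scaling. Twist2, a helix-loop-helix protein of dermal and other mesenchyme, differed by 0.13 (edgeR adjusted p = 0.497). Foxf1, a forkhead factor of splanchnic mesenchyme, differed by 0.15 (edgeR adjusted p = 0.333). As unscaled section rates both were lower in the first embryo, with means of 11.1 and 12.3 per 10000 for Twist2 and 5.26 and 5.79 for Foxf1. Over all genes 9.82% were called higher and 2.71% lower with this TMM scaling. Of 9 genes of sclerotome and paraxial mesoderm, 2 were higher and 0 lower, namely Sox9, which directs cartilage formation, by 0.99 (edgeR adjusted p = 0.00122), and Snai1, a repressor of epithelial genes, by 0.35 (0.0451). The median of these 9 was 0.14, beside -0.03 over all genes. Of 18 genes of mesenchyme and its matrix, a list that also holds genes outside the matrix such as Vim and the cadherin gene Cdh11, 3 were higher and 0 lower. They were the intermediate filament gene Vim at 1.10 (edgeR adjusted p = 2.27e-05), the collagen chaperone gene Serpinh1 at 0.68 (0.00141) and the matrix protease gene Mmp2 at 0.31 (0.0275), with a list median of 0.22, and none of its 7 collagen genes passed. Of 20 genes of mesenchymal signalling 1 was higher, the chemokine gene Cxcl12, by 0.94 (edgeR adjusted p = 0.00232), and the list median was 0.04. Among 11 vascular genes linked to Foxc factors 0 passed in either direction, and among 5 epithelial genes Krt18 did, at 0.53 (edgeR adjusted p = 0.0208).

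The share of cells with a transcript was compared with each cell thinned to 100 transcripts, which left out 6940 and 5067 shallower cells. Twist1 was found in 34.4% ± 6.36 of thinned cells of the first embryo (13 sections) and 25.3% ± 5.88 of those of the second (9 sections) (two-sided exact permutation test over sections, p = 0.00246, adjusted over all 998 genes 0.00529). Foxc1 was found in 14.6% ± 4.02 and 13.0% ± 2.79 (exact permutation p = 0.352, adjusted 0.390), and Foxc2 in 5.79% ± 1.61 and 5.27% ± 1.15 (exact permutation p = 0.441, adjusted 0.483). Only 56 genes, 5.61% of the panel, were called higher on this measure and 691 lower, with a median ratio over all genes of 0.824. Without thinning, Twist1 was found in 45.8% and 38.2% of cells (exact permutation test over 13 and 9 sections, adjusted p = 0.0821).

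Levels also differed within sections. The files divide the sections into 50 imaged fields, and 18 sections had more than 1. The highest field of a section exceeded the lowest by a median of 2.22-fold for Foxc1, 1.64-fold for Foxc2 and 1.84-fold for Twist1. In section 11 of the embryo labelled Nr4a1-/-Nr4a2-/- Foxc1 ran from 2.41 to 24.8 per 10000 between fields, and Twist1 from 7.29 to 72.8. Of the 4 sections with a single field, section 1 had the highest Foxc1 of its embryo, section 13 the highest Foxc2, and section 16 the highest of both in the embryo labelled Nr4a1+/+Nr4a2+/+. The fourth, section 17, was mid-range in Foxc1 (15.5) and Foxc2 (5.25) and had the lowest Twist1 of all sections (16.1). How far the imaged area sets the section levels was not tested. Over sections, Foxc1 and Foxc2 levels had a Pearson correlation of 0.547 in the first embryo and 0.911 in the second, or 0.642 over its 8 sections other than section 16, given as a description because sections of an embryo share tissue and slide.

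Foxc1 and Foxc2 were found in the same cells more often than cell depth gave. A cell with more transcripts is more likely to hold any pair of genes, so the expected number of cells with both was taken from 20 strata of cell total within each section. Foxc1 and Foxc2 shared 1924 cells where 1407 were expected, a ratio of 1.37. By section the ratio ran from 1.22 through 1.38 to 1.70 in the first embryo and from 1.18 through 1.29 to 1.46 in the second, and it exceeded 1 in 22 of 22. The mean log2 ratio was 0.44 ± 0.13 (SD over 22 sections, two-sided exact sign-flip permutation test, p = 4.77e-07, the smallest this design can give, and 0.000119 adjusted over 997 partners). By mean log2 ratio each of these genes stood at rank 2 among the 997 partners of the other, after Cxcl12. By the ratio over all sections Foxc2 kept rank 2 with Foxc1, while Foxc1 stood at rank 1 with Foxc2, at 1.37 beside 1.36 for Cxcl12. In all, 58 genes, 5.82% of the panel, were called above expectation with Foxc1, 35 genes, 3.51%, with Foxc2 and 82 genes, 8.22%, with Twist1.

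Twist1 was set against each Foxc gene in the same way, and its pairs were not tested against the Foxc pair. Foxc1 and Twist1 shared 5062 cells where 4634 were expected, a ratio of 1.09 with a mean log2 value of 0.13 ± 0.16, above 0 in 17 of 22 sections (exact sign-flip permutation test, adjusted p = 0.00666). By section this ratio ran from 0.982 through 1.11 to 1.46 in the first embryo and from 0.960 through 1.02 to 1.24 in the second. Foxc2 and Twist1 shared 2622 cells where 2491 were expected, a ratio of 1.05, with a mean log2 value of 0.07 ± 0.14, above 0 in 16 of 22 sections (exact sign-flip permutation test, p = 0.0310, adjusted p = 0.271), which did not pass. Strata of cell total drawn within each imaged field instead of each section gave 0.38, 0.13 and 0.07 for the 3 pairs. An expectation from Poisson draws of each gene's section rate gave -0.30, -0.73 and -0.56, and with it all 997 partners of each gene fell below expectation.

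All 3 genes were found together in 1347 cells, where the expectation was 880. This ratio ran from 1.08 through 1.52 to 2.29 over sections and exceeded 1 in 22 of 22. The expectation takes the 3 genes as independent within strata, which the Foxc pair already departs from, so the ratio has no test of its own. Of all kept cells, 26.6% held Twist1 without either Foxc gene, 7.46% Foxc1 alone, 2.93% Foxc2 alone and 44.6% none of the 3. Cells with both Foxc genes and no Twist1 numbered 278 in the first embryo, against 285.6 expected, and 299 in the second, against 241.1 expected. A total of 3715 cells held Foxc1 and Twist1 without Foxc2, against 3754 expected, and 1275 held Foxc2 and Twist1 without Foxc1, against 1611 expected.

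**Figure D2:**
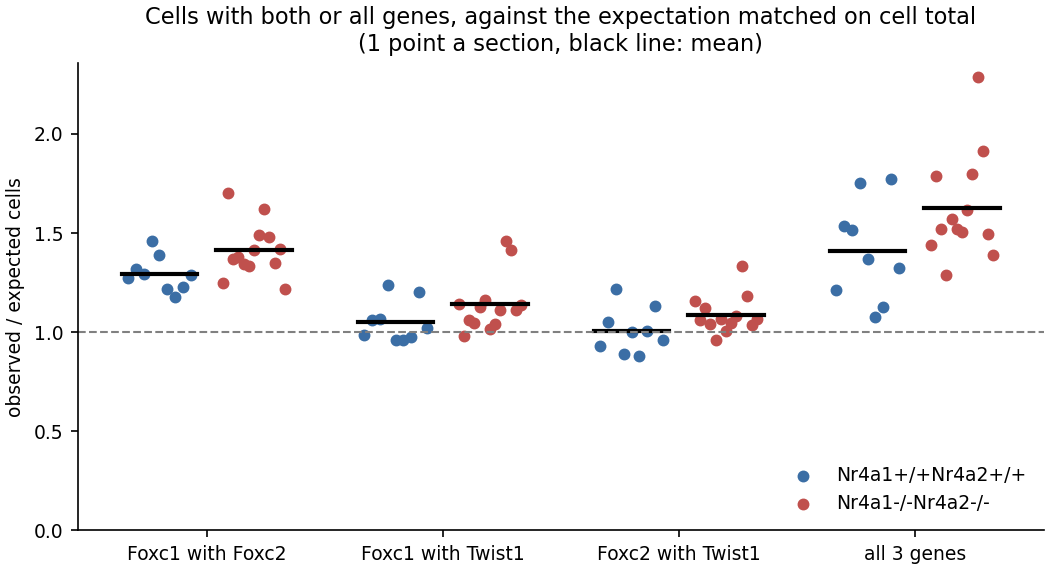
Observed over expected number of cells (vertical axis) holding both genes of each pair, or all 3, with 1 point a section, blue for 9 sections labelled Nr4a1+/+Nr4a2+/+, red for 13 labelled Nr4a1-/-Nr4a2-/-, and a black line for each mean. Every section lies above the dashed line at 1 for Foxc1 with Foxc2 and for all 3 genes, and sections lie on both sides of it for the pairs with Twist1.

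The Foxc2 level rose with the Foxc1 count of the cell. In cells without Foxc1 it was 4.81 ± 1.31 per 10000 (SD, n = 13) in the first embryo and 4.65 ± 0.637 (SD, n = 9) in the second. With 1 Foxc1 transcript it was 7.45 and 7.25, with 2 or 3 it was 9.39 and 7.68, and with 4 or more it was 11.5 ± 3.56 (SD, n = 12) and 11.4 ± 3.35 (SD, n = 9). This is the pairing above seen as levels, and it has no test of its own. Over the same steps of Foxc1 count the Twist1 level was 52.6 ± 19.4, 54.8, 58.3 and 66.2 ± 23.6 (SD between sections) in the first embryo. In the second it was 36.5 ± 11.7, 31.9, 31.9 and 37.5 ± 12.3. The steps come from the same sections, and the paired differences in Twist1 were not tested.

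Between the embryos, Foxc1 and Foxc2 shared cells at 1.43 times expectation in the first embryo and 1.28 times in the second, a difference of 0.12 in mean log2 ratio (two-sided exact permutation test over 13 and 9 sections, p = 0.0272, and 0.767 adjusted over all partners of Foxc1 or 0.904 over those of Foxc2). For Foxc1 with Twist1 the ratios were 1.14 and 1.01 (exact permutation p = 0.119), and for Foxc2 with Twist1 1.09 and 0.990 (p = 0.0622). After adjustment 0 of 997 partners differed between the embryos for any of the 3 genes by this exact permutation test, while 62, 45 and 110 partners of Foxc1, Foxc2 and Twist1 had an unadjusted p under 0.05. In the 9 sections labelled Nr4a1+/+Nr4a2+/+ alone, the mean log2 ratio of Foxc1 with Foxc2 was 0.36, above 0 in 9 of 9 (exact sign-flip permutation p = 0.00391, the smallest that 9 sections allow, adjusted p = 0.354).

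Over the rest of the panel, the partners of Foxc1 were led by Cxcl12 and Sox9. Likeness was measured as the Pearson correlation over cells between residuals of the counts from section rate and cell total, averaged over both embryos and given as a description. It was highest with Foxc1 for Cxcl12, a chemokine of stromal cells, at 0.178, followed by Sox9 at 0.148, Foxc2 at 0.0965, the ephrin receptor gene Epha7, the matrix genes Sparcl1 and Vcan, the mesenchymal cadherin gene Cdh11 and the basement membrane collagen gene Col4a2 at 0.0594. Cells with Foxc1 and Cxcl12 numbered 1.42 times the expectation and lay above it in 22 of 22 sections, and those with Foxc1 and Sox9 1.33 times, above in 21 of 22 (exact sign-flip permutation test, adjusted p = 9.51e-05 and 0.000119). Of the 9 sclerotome and paraxial mesoderm genes 3 were called above expectation with Foxc1 (Sox9, Pax1 and Pax9, at ratios of 1.33, 1.13 and 1.10) and 0 below. Among the 18 genes of mesenchyme and its matrix 6 were above and 0 below, and among 20 signalling genes 3 were above and 3 below, the latter being Wnt5a, Epha3 and Fgfr2. Of all partners of Foxc1 5.82% were called above and 2.31% below.

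Of 5 epithelial genes, Krt8 and Krt18 were called below expectation with Foxc1, 0 above, and 3 did not pass, where 23 of 997 partners, 2.31%, were called below. Krt8, a keratin gene of simple epithelia, had the lowest value among 997 partners at a ratio of 0.860, below expectation in 21 of 22 sections (exact sign-flip permutation test, adjusted p = 0.000119), and Krt18 had a ratio of 0.875 (adjusted p = 0.00138). Foxf1 also fell below expectation with Foxc1, at 0.910 (exact sign-flip permutation test over 22 sections, adjusted p = 0.00741). Twist2 did not differ from expectation with Foxc1 beyond the spread of sections, at 0.996 (adjusted p = 0.899).

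Foxc2 also had Cxcl12 as its most correlated gene. Its correlation over cells was 0.104 with Cxcl12, 0.0965 with Foxc1, 0.0669 with Col4a1 and 0.0631 with Tagln, an actin-binding protein of smooth muscle, followed by Col4a2, Acta2, Sox9 and Cald1 at 0.0478. Cells with Foxc2 and Cxcl12 numbered 1.36 times the expectation, above it in 22 of 22 sections, and those with Foxc2 and Tagln 1.20 times, in 20 of 22 (exact sign-flip permutation test, adjusted p = 0.000119 and 0.00389). Of the 18 genes of mesenchyme and its matrix 7 were above expectation with Foxc2, including Cdh11 at 1.17 and Vcan at 1.16, and 0 below, where 3.51% of all partners were called above and 0.502% below. Of the 9 sclerotome genes only Sox9 passed, at 1.21, and of 11 vascular genes only Efnb2, the arterial ephrin gene, at 1.16 (exact sign-flip permutation test over 22 sections, adjusted p = 0.000211).

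Twist1 had its highest correlations with genes that most cells express: Hmgb2 at 0.231, Eno1/b at 0.206, Hsp90ab1 at 0.200, then Mif, Eif5a, Hsp90aa1, Ppia and Tubb5 at 0.159. Their co-detection ratios with Twist1 were 1.00 to 1.04, and 0 of the 8 were among its 8 highest partners by that ratio. By the ratio its leading partners were Col3a1, Cdh11, Foxc1, Pdgfra, Mrc2, Twist2, Sox9 and Nfatc4, between 1.08 and 1.10. Of the 9 sclerotome and paraxial mesoderm genes 6 were above expectation with Twist1 and 1 below, and of 20 signalling genes 9 were above and 0 below, where 8.22% of all partners were called above and 9.33% below. Twist2 was above expectation with Twist1 in 22 of 22 sections, at 1.09 (exact sign-flip permutation test, adjusted p = 3.4e-05). The lowest ratio was that of Sox2, a factor of neural progenitors, at 0.798, followed by the metallothionein gene Mt1 at 0.852 and the erythropoietin receptor gene Epor at 0.854. Hba-a1/2, the alpha globin genes, had the lowest correlation with both Twist1, at -0.164, and Foxc1, at -0.0714.

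**Figure D3:**
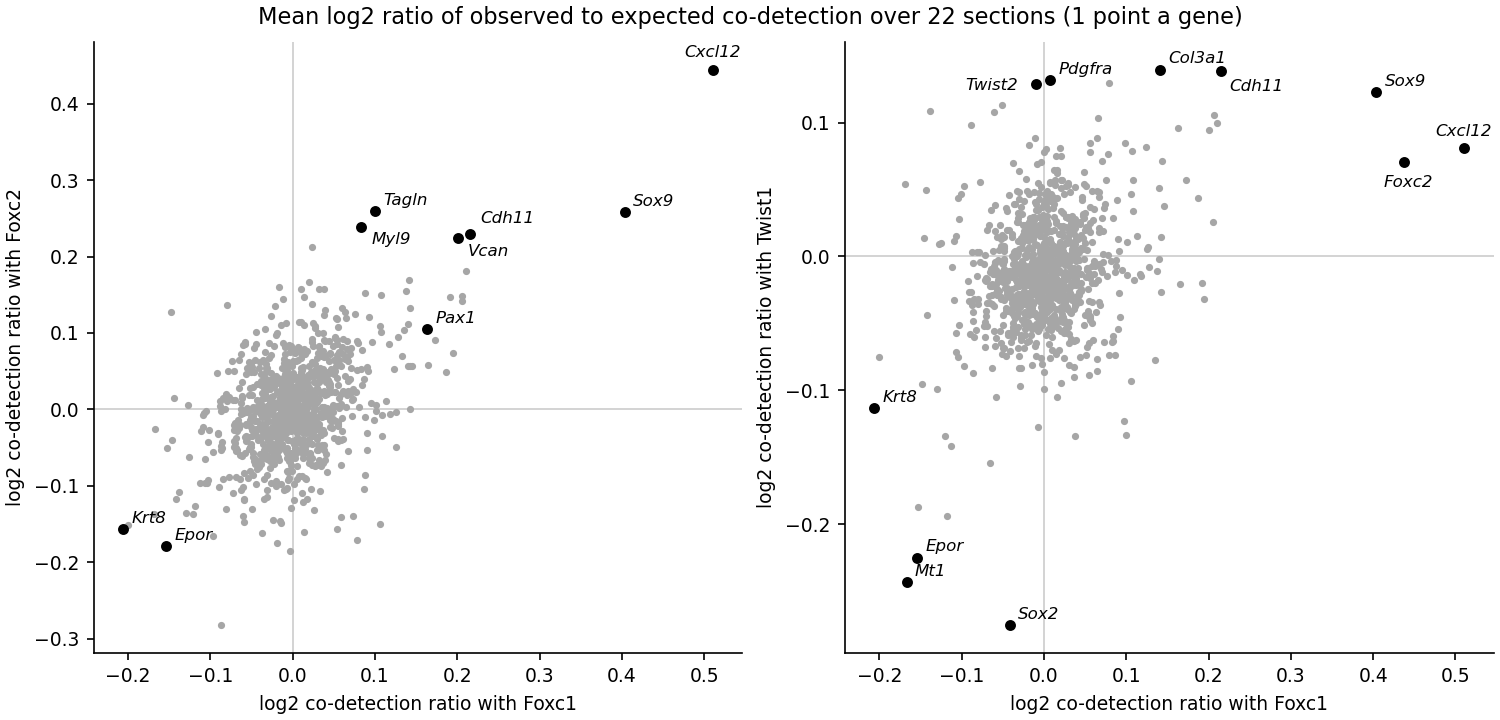
Mean log2 ratio of observed to expected co-detection over 22 sections for each panel gene, with Foxc1 on the horizontal axes and Foxc2 (left) or Twist1 (right) on the vertical axes, where named points were picked after their values were seen. Cxcl12 (0.51 with Foxc1 and 0.44 with Foxc2) lies far from most genes on both Foxc axes, and Sox9 and Foxc2 (0.40 and 0.44) on that of Foxc1, while Twist1 values stay within a narrower range.

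Endothelial cells were taken as those with at least 3 transcripts of Cdh5, the cadherin of endothelial junctions, and numbered 1821, or 4.85% of kept cells. The gate was checked with the endothelial genes Pecam1, Vwf, Tie1, Tek and Kdr, which were 1.75- to 2.98-fold higher in them than in other cells in 21 of 21 sections with at least 10 such cells. These cells were deep, with a median of 461 transcripts. A transcript of Foxc1 was found in 40.9% of them, of Foxc2 in 25.3% and of Twist1 in 52.4%. Other cells drawn to match their totals gave 32.3%, 20.04% and 64.4%, and cells of an erythroid marker gate without the Cdh5 cells, which should lack these factors, gave 14.4%, 8.22% and 18.96% at a median depth of 285. Thinned to 100 transcripts, the shares in Cdh5 cells were 13.2% ± 3.53, 6.75% ± 2.23 and 21.2% ± 6.49 (SD, n = 21 sections), and those in erythroid cells 6.02%, 3.01% and 8.91%. The share was higher in Cdh5 cells than in erythroid cells in 21 of 21 sections for each of the 3 genes (exact sign-flip permutation test, p = 9.54e-07, the smallest possible). Globin transcripts were kept in the totals of erythroid cells and take a part of the 100 thinned transcripts. How much of this difference they make was not tested.

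Relative to all other cells, Cdh5 cells had more Foxc2, less Twist1 and no measurable difference in Foxc1. Foxc2 was 0.42 higher on the log2 scale (SE 0.08, edgeR quasi-likelihood test with section as a block, Benjamini-Hochberg adjusted p = 1.99e-06), where 13.0% of 998 genes were called higher. Its level over 21 sections ran from 3.76 through 7.19 to 14.4 per 10000 in Cdh5 cells. Twist1 fell by 0.72 (SE 0.05, edgeR adjusted p = 8.69e-27), where 10.3% of genes were called lower, and ran from 9.78 through 26.3 to 52.4. Foxc1 differed by -0.01 (SE 0.08, edgeR adjusted p = 0.959) and ran from 8.01 through 15.3 to 27.2. Twist2 differed by -0.33 (edgeR adjusted p = 1.68e-05).

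The Foxc2 difference of Cdh5 cells was smaller without cells that met other gates, a change that was not tested. Of the 1821 Cdh5 cells 9.39% also met the smooth muscle gate (Acta2 and Tagln), and 512 met at least 1 gate besides the endothelial one. Without smooth muscle gate cells on either side the Foxc2 difference was 0.27 (edgeR adjusted p = 0.00957), and without the cells of any other gate it was 0.24 (adjusted p = 0.0636), no longer past the threshold. Against other cells matched on total it was 0.44 (edgeR adjusted p = 0.000489). Segmentation in a thin section can give a cell the transcripts of its neighbour, and the part of this in the shares above was not tested. Of the 11 vascular genes linked to Foxc factors 10 were higher in Cdh5 cells and 1, Vegfa, was lower, while 4 of 9 sclerotome genes and 10 of 20 signalling genes were lower, among them Sox9 at -0.80 and Cxcl12 at -0.37 (edgeR adjusted p = 1.56e-18 and 6.54e-08). Over all genes 13.0% were called higher and 10.3% lower in this comparison.

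The Cdh5 count itself ordered these levels. Twist1 averaged 50.5 per 10000 in cells without Cdh5, 41.6 with 1 or 2 transcripts, 31.8 with 3 to 5 and 20.5 with 6 or more, and the last was lower than the first in 18 of 18 sections (exact sign-flip permutation test, p = 7.63e-06). Foxc2 averaged 5.82, 5.96, 6.93 and 7.81, higher at the last step in 13 of 18 sections (exact sign-flip permutation p = 0.00429). Foxc1 averaged 17.1, 16.4, 16.1 and 13.5, lower in 13 of 18 (exact sign-flip permutation p = 0.0562). The steps also differ in depth, with median totals of 162.75, 371, 439 and 589 transcripts.

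**Figure D4:**
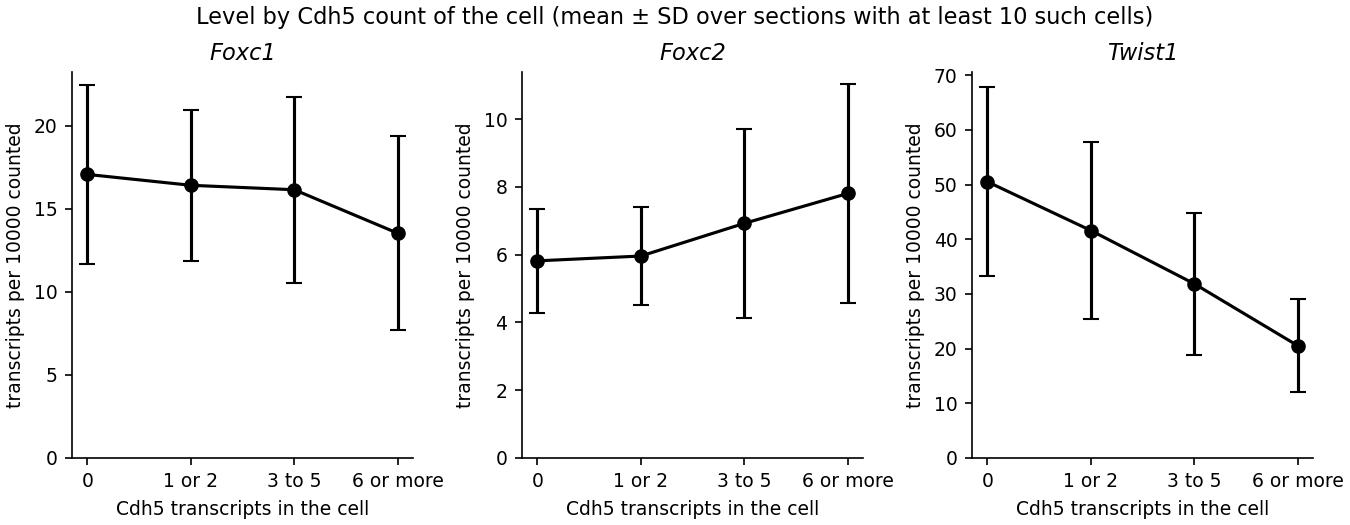
Level of each gene per 10000 transcripts (vertical axes) by the number of Cdh5 transcripts in the cell (horizontal axes), as mean ± SD over 18 to 22 sections. Twist1 falls from 50.5 to 20.5 across the steps, Foxc2 runs from 5.82 to 7.81, and the SDs of neighbouring steps overlap for all 3 genes.

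In Cdh5 cells the pairing of Foxc1 with Foxc2 was weaker than elsewhere. Over 21 sections 229 Cdh5 cells held both genes where 210 were expected, a ratio of 1.09, with a mean log2 value of 0.16 ± 0.31 and 13 of 21 sections above 0 (exact sign-flip permutation p = 0.0284). In other cells, with the same 5 strata of total, the ratio was 1.44. The difference in mean log2 ratio was -0.36, and Cdh5 cells were lower in 17 of 21 sections (exact sign-flip permutation p = 0.000176). Against other cells matched on total, in which 199 held both where 137 were expected, the difference was -0.39, lower in 18 of 21 sections (exact sign-flip permutation p = 0.000514). The pairs with Twist1 gave differences of -0.12 and -0.08 (exact sign-flip permutation over 21 sections, p = 0.259 and 0.174).

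Within Cdh5 cells, Foxc1 was higher in the embryo labelled Nr4a1-/-Nr4a2-/-, at 17.4 ± 4.99 per 10000 (SD, n = 12) against 12.9 ± 3.10 (SD, n = 9), a log2 difference of 0.57 (SE 0.15, edgeR adjusted p = 0.00556). Twist1 was 33.2 ± 11.7 against 21.7 ± 6.93, a difference of 0.78 (SE 0.22, edgeR adjusted p = 0.0361), and Foxc2 7.07 ± 1.75 against 7.39 ± 2.97, a difference of 0.07 (SE 0.16, edgeR adjusted p = 0.883). The test called 60 of 985 genes, 6.09%, higher in this embryo and 10 lower. By an exact permutation test of section rates in these cells, which called 7.12% of genes in either direction, none of the 3 passed (adjusted p = 0.117 for Foxc1, 0.0863 for Twist1 and 0.870 for Foxc2). The edgeR call of Foxc1 was kept in each of 21 fits that left out 1 section, while the Twist1 call was lost in 10 of them, with adjusted p up to 0.0734. A Cdh5 count of at least 4 gave 0.61 for Foxc1 (edgeR adjusted p = 0.106), and library size scaling gave 0.39 for Foxc1 (adjusted p = 0.0515) and 0.59 for Twist1 (0.0641). Whether the embryo difference was itself different between Cdh5 cells and other cells was tested as an interaction, with edgeR adjusted p of 0.851, 0.854 and 0.848 for Foxc1, Foxc2 and Twist1.

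Across 9 marker gates, Foxc1 was highest in cells of the sclerotome gate, defined by Pax1, Pax9 and Sox9. There it averaged 38.8 ± 11.8 per 10000 (SD, n = 22 sections), 2.41 times its level in the remaining cells and higher in 22 of 22 sections (exact sign-flip permutation test, adjusted p = 0.000119). Twist1 averaged 67.6 ± 31.0 in this gate, 1.47 times the remaining cells and higher in 19 of 22 (exact sign-flip permutation, adjusted p = 0.0169). By embryo it was 86.8 against 53.6 outside the gate in the first, higher in 12 of 13 sections, and 39.9 against 34.8 in the second, higher in 7 of 9, and the difference between these ratios of 1.62 and 1.15 was not tested. Foxc2 averaged 9.30 ± 3.91, 1.58 times and higher in 19 of 22 (exact sign-flip permutation, adjusted p = 0.0268). Only 11 of 995 genes, 1.11%, were called higher in the sclerotome gate, and all 3 factors were among them. With 5 marker transcripts required in place of 3, Foxc1 still passed, while Foxc2 and Twist1 did not (exact sign-flip permutation, adjusted p = 0.0573 and 0.0873).

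In this gate the embryos differed in Twist1. It ran from 58.5 through 79.9 to 134.4 per 10000 over 13 sections of the first embryo, labelled Nr4a1-/-Nr4a2-/-, and from 20.1 through 38.0 to 66.4 over 9 sections of the second, with means of 86.8 ± 23.4 and 39.9 ± 15.5 (exact permutation test over sections, p = 3.02e-05, and 0.00375 adjusted over 995 genes, of which 6.23% were called in either direction). The ranges overlapped in a narrow band. In the other 8 gates Twist1 did not pass between the embryos (exact permutation test over sections, adjusted p from 0.0863 to 0.974), with ratios of the first embryo to the second from 0.851 in matrix mesenchyme to 1.90 in cardiac muscle. In the sclerotome gate Foxc1 averaged 43.6 ± 11.2 and 31.9 ± 9.45 (exact permutation test over 13 and 9 sections, adjusted p = 0.132), and Foxc2 10.7 ± 4.04 and 7.29 ± 2.81 (adjusted p = 0.191). The median gene of the panel had a ratio of 0.805 between the embryos in this gate. Sox9, a marker that defines the gate, was itself higher in the first embryo over all cells, and its part in this difference was not tested.

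Foxc2 had its highest mean over all sections in the smooth muscle gate, at 10.8 ± 4.75 per 10000, 1.88 times the remaining cells and higher in 20 of 22 sections (exact sign-flip permutation test, adjusted p = 0.00028, with 6.93% of genes called higher). The embryos gave different orders, 10.4 in smooth muscle and 10.7 in sclerotome in the first, 11.3 and 7.29 in the second, and the step between these gates did not exceed the spread of sections. Twist1 was low there, at 25.9 ± 11.8, or 0.541 of the remaining cells, lower in 22 of 22 (exact sign-flip permutation, adjusted p = 2.26e-05, with 23.5% of genes called lower). Foxc1 averaged 19.3 ± 8.55 (exact sign-flip permutation over 22 sections, adjusted p = 0.196). In the endothelial gate, under the same test, Foxc2 was higher (7.21 ± 2.29, adjusted p = 0.00249, 9.23% of genes higher) and Twist1 lower (28.3 ± 11.4, adjusted p = 2.02e-05, 17.9% of genes lower). Without cells that met more than 1 gate, the Foxc2 difference in the endothelial gate was 0.70 per 10000 in place of 1.57 and did not pass (exact sign-flip permutation, adjusted p = 0.250).

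Erythroid gate cells, marked by globin transcripts, had less of each of the 3 genes than the remaining cells. Foxc1 averaged 7.57 ± 3.57, Foxc2 3.396 ± 1.35 and Twist1 12.8 ± 10.0 per 10000, ratios of 0.430, 0.546 and 0.260 to the remaining cells (exact sign-flip permutation over 22 sections, adjusted p = 6.78e-06, 2.14e-05 and 6.78e-06, where 31.8% of genes were called lower). With the globin counts left out of the totals, the same test called 13.9% of genes lower and 42.1% higher, and the 3 factors still passed as lower (exact sign-flip permutation, adjusted p = 1.4e-05, 0.000925 and 1.4e-05). In the epithelial gate Foxc1 averaged 8.93 ± 4.94 and Twist1 26.5 ± 14.02, lower in 21 and 22 of 22 sections (exact sign-flip permutation, adjusted p = 0.000631 and 0.000237, with 1.61% of genes lower), and Foxc2 averaged 3.86 ± 2.67 (adjusted p = 0.0612). The erythroid and epithelial gates were not apart in Foxc1 or Foxc2 (exact sign-flip permutation p = 0.296 and 0.416), and with the markers of each gate left out of the totals the order of their means turned, to 9.41 in erythroid and 9.14 in epithelial cells for Foxc1 and 4.16 and 3.96 for Foxc2. In the neural gate, marked by Sox2 and Hes5, Twist1 averaged 23.0 ± 12.2 over 19 sections and was lower (exact sign-flip permutation, adjusted p = 0.0019, with 2.41% of genes lower). None of the 3 was called in the macrophage gate, where 7.44% of genes were called in either direction, or in the cardiac muscle gate, where 5.63% were.

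Cells of the matrix mesenchyme gate, marked by Col1a1, Col1a2 and Col3a1, varied most from section to section in both Foxc genes, relative to the mean of the gate. Foxc1 ran in them from 1.52 through 5.84 to 42.0 per 10000 in the first embryo and from 1.94 through 30.7 to 40.4 in the second. Foxc2 ran from 0.470 through 3.27 to 13.6 and from 1.45 through 10.4 to 20.9. The embryos overlapped over nearly the whole range of Foxc1 and from 1.45 to 13.6 for Foxc2, and neither gene differed after adjustment (exact permutation test over 13 and 9 sections, adjusted p = 0.475 and 0.484). Against the remaining cells Twist1 was lower in this gate, at 26.2 ± 11.3 (exact sign-flip permutation over 22 sections, adjusted p = 0.00029, with 32.3% of genes lower), and Foxc1 and Foxc2 did not pass (adjusted p = 0.837 and 0.339). The embryos were unlike in these ratios, and that difference was not tested. Twist1 stood at 0.436 of the remaining cells in the first embryo, lower in 13 of 13 sections, and at 0.813 in the second, lower in 6 of 9. Foxc1 stood at 0.607 and 1.55, and Foxc2 at 0.876 and 1.87, so the pooled values join opposite directions.

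Few steps in the order of gates exceeded the spread of sections. Among 24 comparisons of neighbouring gates, read from unadjusted exact sign-flip permutation p-values, Foxc1 separated sclerotome from smooth muscle (38.8 against 19.3, p = 1.91e-06), and the next gates down, from smooth muscle through cardiac muscle, macrophage, matrix mesenchyme and endothelial to neural, did not differ from their neighbours beyond that spread. Neural exceeded epithelial narrowly in Foxc1 (12.2 against 8.93, exact sign-flip permutation p = 0.0437). For Foxc2 the order from the top was smooth muscle, sclerotome, matrix mesenchyme and endothelial, none apart from its neighbour, and endothelial exceeded macrophage (exact sign-flip permutation p = 0.00732). For Twist1 sclerotome stood above macrophage (exact sign-flip permutation p = 1.76e-05), cardiac muscle above endothelial (p = 0.0027) and neural above erythroid (p = 0.000549). Most transcripts lay in none of these gates: the 28037 cells outside all of them, 74.6% of the total, held 66.3% of Foxc1, 64.1% of Foxc2 and 78.1% of Twist1 transcripts, against 65.8% of all counts.

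**Figure D5:**
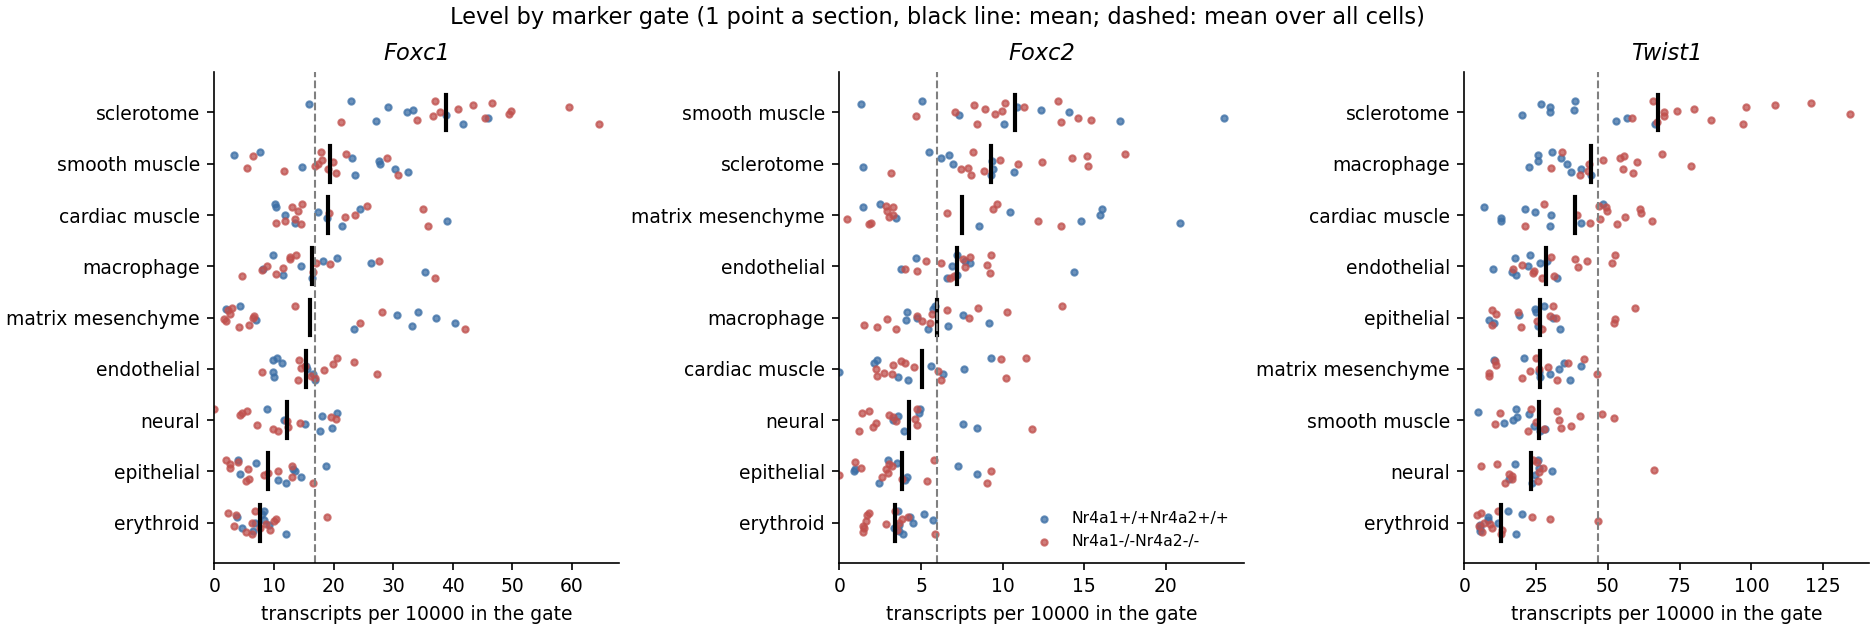
Level of each gene per 10000 transcripts (horizontal axes) in cells of 9 marker gates, ordered by mean, with 1 point a section in blue (Nr4a1+/+Nr4a2+/+) or red (Nr4a1-/-Nr4a2-/-), a black line for the mean over sections and a dashed line for the mean over all cells. Foxc1 at 38.8 and Twist1 at 67.6 are highest in the sclerotome gate, Foxc2 at 10.8 in the smooth muscle gate, whose points overlap those of the sclerotome gate, and the erythroid mean of Twist1, at 12.8, is its lowest.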

How the data were processed

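Single-cell transcript counts of 998 genes were measured in 22 sections, 13 labelled Knockout and 9 labelled Wildtype. The authors hybridised the CosMx mouse panel with custom probes, segmented cells and processed images in AtoMx; Seurat is named in their processing notes. The deposited tables hold raw transcript counts per segmented cell, unnormalised and without a minimum, and they were used as deposited. Groups were taken from the genotype label. The labels name the tissue fresh frozen in one field and paraffin-embedded in another, and the study's methods give fresh frozen. The series text names a human panel, while the study's gene list names the mouse panel and the files hold mouse gene symbols. Free RNA and spill between cells were not corrected by any step found here, and doublets were not called.

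Cells with at least 10 transcripts from 10 genes were kept. Counts summed per section were tested with edgeR 4.0.16 (R 4.3.3, TMM, quasi-likelihood, Benjamini-Hochberg over all genes tested, threshold 0.05), and DESeq2 1.42.0 served as an alternative. Co-detection was compared with expectations from 20 strata of cell total per section, with 0.5 added to both counts before log2, and tested by two-sided exact sign-flip permutation over sections. Gates required at least 3 marker transcripts and 4 times the section rate, and the endothelial gate 3 Cdh5 transcripts; sections needed 10 gate cells. A cell could fall in several gates. Named genes were the 3 factors, Nr4a1, Nr4a2, Cdh5, Twist2, Foxf1, the 8 genes most correlated with each factor, and called members of fixed lists. The leading and lowest co-detection partners of Twist1 outside these, Krt8, Krt18 and Hba-a1/2 were named after their values were seen. The factors and lists were chosen with earlier results of these data known. Scripts were tested on simulated data. Intervals and SDs cover sections only; section totals set the depth.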

Additional observations from a re-analysis of the deposited data

Results flagged for a closer look

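Section 16, replicate 3 of the embryo labelled Nr4a1+/+Nr4a2+/+, stood apart from the other 8 sections of its embryo in both Foxc genes. It had 22.9 Foxc1 transcripts per 10000, where the next section had 16.1, and 8.94 Foxc2 transcripts per 10000, where the next had 6.19. Among cells thinned to 100 transcripts 19.9% held Foxc1 and 7.98% held Foxc2, with 13.4% and 5.97% in the next section. In its Cdh5 cells Foxc2 reached 14.4 per 10000, where the next section had 7.99, while Foxc1 in those cells and Twist1 were not apart. This section holds 1 imaged field. Of 12 such checks 5 passed, all in this section, and chance passes about 1 in 20; the measures are not independent of each other. The checks cover the 9 sections of this embryo only, because groups of more than 10 are not tested. In the other embryo Foxc2 was 10.4 per 10000 in section 13 and 7.43 in the next.

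Co-detection of Foxc1 with Foxc2 differed between cell classes. The mean log2 ratio in Cdh5 cells was lower than in other cells by -0.36, and lower than in other cells matched on total by -0.39. It also differed between the embryos before adjustment, by 0.12 for Foxc1 with Foxc2 (exact permutation test over sections, p = 0.0272, adjusted over all partners 0.767), and by 0.21 for cells with all 3 genes (exact permutation p = 0.0477, with no adjustment over other sets of genes). The latter ratio is taken against an expectation of 3 independent genes, so it also holds the difference between the embryos in the Foxc pair.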

How the results depend on the processing

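Of 227 values under alternatives other than leaving out a section, 186 kept their direction and side of the threshold (or, for counts, stayed within 1.5 times), and with 1 section left out 147 values did and 25 did not. No paired analysis was possible because section numbers do not tie sections of the 2 embryos to each other. Left-out sections gave Foxc1 over all cells a range of 0.38 to 0.55, Foxc2 0.29 to 0.45 (called without Knockout replicate 5 or Wildtype replicate 3), and Twist1 in Cdh5 cells 0.69 to 0.88. Over all cells, library size scaling gave 0.19 for Foxc1 and 777 called genes, sections numbered 1 gave 0.27 for Foxc1, 0.78 for Twist1 and 55 genes, and exact permutation of section rates gave 0.19 for Foxc1 and 773 genes. Foxc2 passed with DESeq2 (0.37), without the top 5% of cells by total (0.38) and in sections numbered 2 (0.65). In Cdh5 cells a count of at least 4 gave Foxc1 0.61, and library size scaling gave Foxc1 0.39, Twist1 0.59 and 130 genes. Against other cells, Foxc2 without cells of any other gate was 0.24, and sections labelled Wildtype alone gave 118 genes. The Poisson expectation reversed the 3 pairs (-0.30, -0.73 and -0.56) and called 997 partners of each gene, all of them below expectation. A Poisson spread also gave more cells than were found for single genes, in 994 of 998 genes of the first embryo and 996 of the second. A value below 0 under it therefore sets no pair apart from the panel. Wildtype sections alone gave 0.36 for Foxc1 with Foxc2 and 0.067 for Foxc1 with Twist1 and 0 partners by the exact test, since 9 sections cannot pass over 997 partners unless many do. Knockout sections alone called 38, 21 and 83 partners, and 5 strata called 108 partners of Foxc2. Ranking by co-detection ratio kept 5, 4 and 0 of the 8 most correlated genes of Foxc1, Foxc2 and Twist1. Without thinning the Twist1 share differed by 7.63 percentage points. In the gates, 5 marker transcripts gave Foxc2 -2.71 (epithelial) and 4.79 (sclerotome), and Twist1 22.1 (sclerotome) and -46.5 (neural) per 10000, and leaving out cells in several gates gave Foxc2 0.70 (endothelial) and -2.73 (neural). Apart from the Wildtype sections alone, the cause of each change was not tested. The field strata, the gate markers left out of totals and both gate exclusions in Cdh5 cells were chosen after seeing the data.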
